A study of Homo sapiens with 6 samples.

Results

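R-loop peaks were examined at 9 genes of translesion synthesis, the pathway by which cells copy DNA past damaged bases. The genes were chosen by a fixed list of names, POLH, POLI, POLK, REV1, REV3L, MAD2L2, RAD18, PCNA and PRIMPOL, out of 20098 protein-coding genes on chromosomes 1 to 22 and X. This list was drawn up with earlier results of these data known. A peak was assigned to a gene when it overlapped the gene record of GENCODE release 44, mapped to GRCh37 (hg19), or 2 kb on either side. By this rule 13 of 10231 peaks in untreated cells and 10 of 11085 peaks in treated cells lay at these genes.

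The peaks were obtained by spKAS-seq of HEK293T cells, an established human embryonic kidney line with the wild-type genotype in all groups. Treated cells received 10 μM N2-heptynyl-dG, a deoxyguanosine with an alkyne chain on its minor-groove nitrogen, in the medium for 3 h, and untreated cells received none. All cells were then given 5 mM N3-kethoxal for 10 min, which labels guanines of unpaired DNA. The displaced strand of an R-loop is captured in this way, and its strand is kept in sequencing. There were 2 samples per condition and 2 inputs of untreated cells, and 1 peak list per condition was analysed, which gives chromosome, start, end and strand of each peak and no height. Each difference below is therefore one between 2 lists, without a replicate check or a test, and the read depth is unknown. The lists hold no expression values, so the identity of the cells was not checked against markers.

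Translesion polymerases have open active sites that accept distorted templates, at the price of fidelity. DNA polymerase κ, encoded by POLK, is known for accurate bypass of bulky minor-groove adducts at the N2 position of guanine. It is joined by the polymerases η (POLH) and ι (POLI), by the scaffold and deoxycytidyl transferase REV1, and by polymerase ζ, whose catalytic subunit is REV3L and whose accessory subunit is MAD2L2. The sliding clamp PCNA is ubiquitinated by the ligase RAD18 at stalled forks, which recruits these polymerases, while PRIMPOL can restart synthesis beyond a lesion. In a transcribed gene the non-template strand is the one displaced by the RNA-DNA hybrid, so a peak on the strand of the gene has the orientation of an R-loop made by that gene's own transcript. How the strand in the lists was assigned is not given in the sources used here. It was taken as the labeled strand, and if it were the other one, gene and opposite strand, the sign of the GC skew and the G and C runs given here would all change places.

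The sequences below are an upstream stretch of a peak found in untreated cells only, at the outer start of PCNA, the matching stretch of the peak in both lists at the canonical PCNA start, and 2 stretches where start sites of opposite direction lie close together, at POLH and REV3L. All were read from GRCh37, contain no annotated untranslated or coding sequence, and are written 5′ to 3′ on the strand named, with each run of GGG or longer in capitals. Guanine on the peak strand is the base that kethoxal can label.
Upstream of the outer PCNA start, minus strand, chr20:5107273-5107500: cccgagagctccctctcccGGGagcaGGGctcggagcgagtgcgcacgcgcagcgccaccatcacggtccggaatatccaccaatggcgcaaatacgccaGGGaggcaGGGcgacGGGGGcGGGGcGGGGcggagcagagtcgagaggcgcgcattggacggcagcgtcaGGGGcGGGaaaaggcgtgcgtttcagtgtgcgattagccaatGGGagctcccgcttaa
Upstream of the canonical PCNA start, minus strand, chr20:5100605-5100750: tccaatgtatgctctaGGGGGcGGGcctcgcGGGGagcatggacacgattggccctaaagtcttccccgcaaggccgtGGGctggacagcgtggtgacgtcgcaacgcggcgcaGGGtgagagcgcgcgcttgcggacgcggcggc
Between XPO5 and POLH, plus strand, chr6:43543776-43543921: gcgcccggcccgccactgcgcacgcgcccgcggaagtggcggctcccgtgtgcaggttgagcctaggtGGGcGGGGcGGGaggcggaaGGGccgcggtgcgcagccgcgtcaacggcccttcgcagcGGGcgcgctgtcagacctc
Upstream of REV3L, minus strand, chr6:111804919-111805081: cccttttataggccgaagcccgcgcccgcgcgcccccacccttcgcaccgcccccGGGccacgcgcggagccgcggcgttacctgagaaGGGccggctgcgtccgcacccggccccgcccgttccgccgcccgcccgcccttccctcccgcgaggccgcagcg

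The POLH stretch lies in the plus-strand peak of both lists, and the REV3L stretch lies under the peaks of both strands in both lists. The PCNA strand upstream of the outer start carried 10 runs of at least 3 G against 4 runs of at least 3 C in 228 bp. The REV3L strand was the reverse, with 2 G runs and 14 C runs in 163 bp. Their GC content was 68.0% and 80.4%.

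R-loop peaks were found at 6 of the 9 genes in untreated cells, namely POLH, POLI, POLK, REV3L, PCNA and PRIMPOL, and at the same 6 genes after treatment. Over all protein-coding genes, 41.8% had a peak by this rule in the untreated list, 43.9% in the treated list and 36.4% in both. None of the 9 genes had peaks in 1 list only, whereas 5.43% of coding genes had peaks in the untreated list only and 7.55% in the treated list only. With 9 genes, counts of this size say little beyond the genes themselves. By length, 4 of the 6 members of 20 to 100 kb had a peak, in a class where 47.5% of coding genes had one in untreated cells. The single member under 20 kb, PCNA, had a peak in a class of 37.0%, and 1 of the 2 members of 100 kb or more, REV3L, in a class of 40.6%.

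In both lists a peak covered the canonical start site of all 6 genes, as shown in the map of peaks around the start sites. Counting either strand in untreated cells, 6 of the 9 genes had a peak no farther than 1 kb from this site. The same held for 5308 of all 20098 coding genes. A peak on the gene strand lay within 1 kb of the canonical start at 5 of the 9 genes in each list. The share over coding genes was 18.4% without and 20.4% with treatment. A peak on the opposite strand lay there at 4 genes in untreated and 3 in treated cells, against 11.1% and 12.0% of coding genes. POLH, POLK and REV3L are among the genes with an opposite-strand start 1 to 1000 bp upstream. Of all such coding genes, 59.7% had an untreated peak in the record or 2 kb on either side, against 37.6% of the others. Peaks of either strand count here, and the upstream start of the other gene lies inside this window by construction. The share therefore includes peaks that may belong to the other gene.

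**Figure D1:**
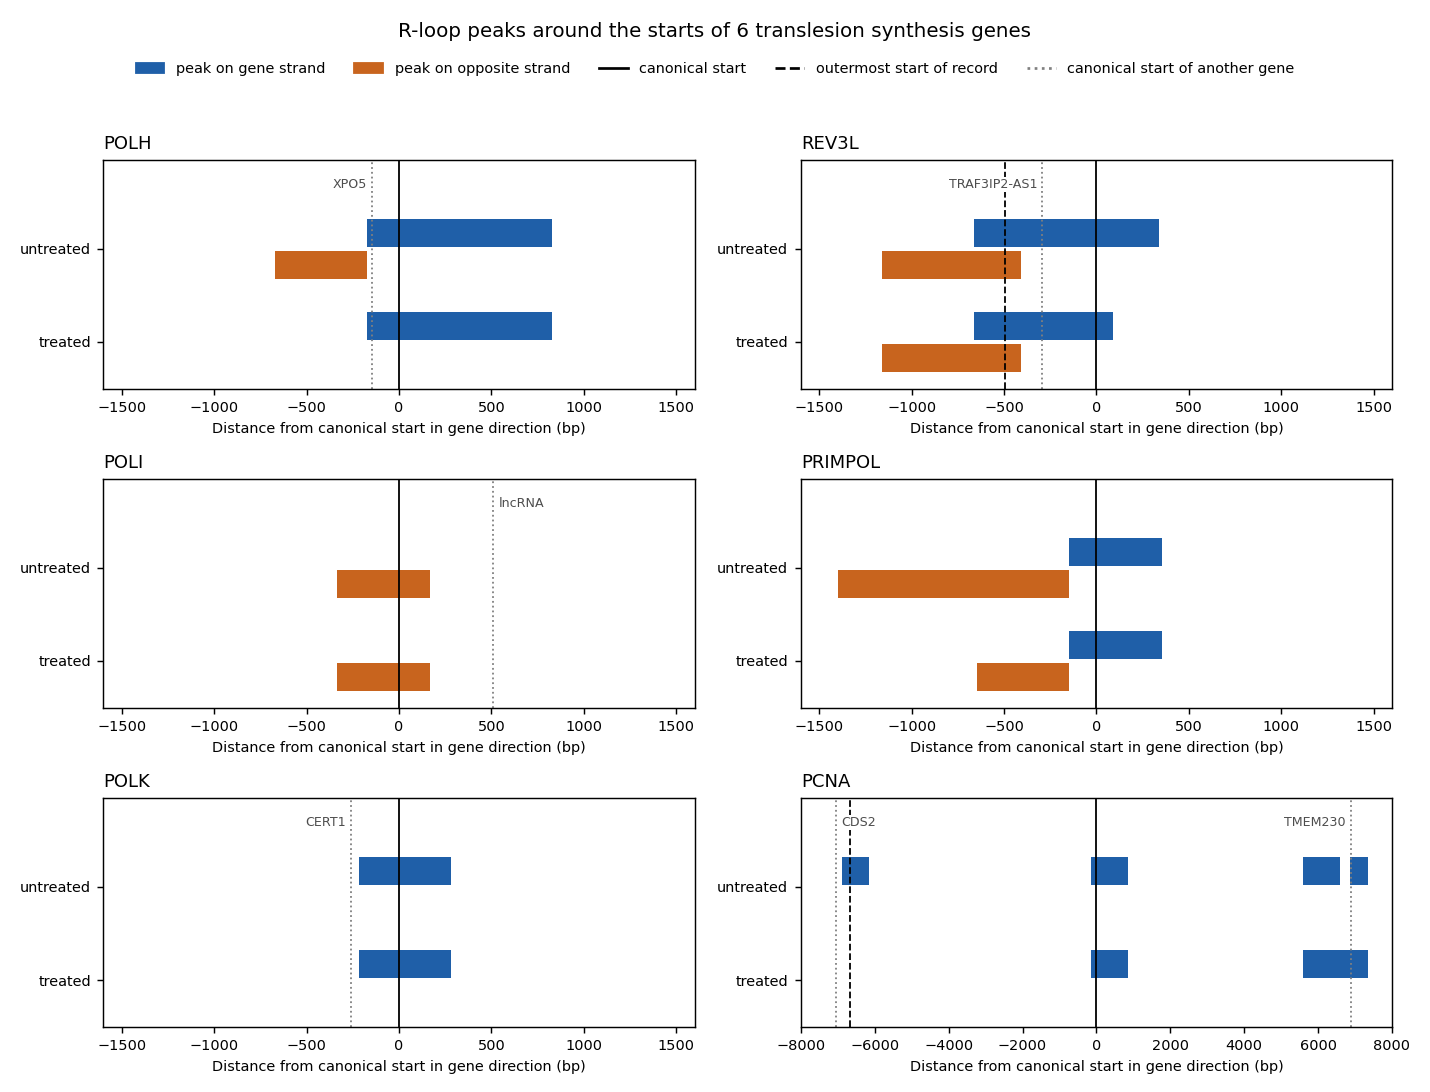
Peaks of the untreated and the treated list at 6 genes, drawn by distance in bp from the canonical start site along the direction of the gene, in blue on the gene strand and in orange on the opposite strand. The peak of POLK behind the gene lies outside the range drawn, the PCNA panel spans a wider range than the others, and at POLH and PCNA the untreated list has a peak that the treated list lacks.

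The treated list contained no peak at these genes that was absent from untreated cells. All 10 treated peaks overlapped an untreated peak, while 30.5% of all treated peaks did not. In the other direction, 11 of the 13 peaks of untreated cells were shared, and 2, or 15.4%, were not, against 25.2% of all untreated peaks. Both borders and the strand were the same in the 2 lists for 7 peaks, which is 53.8% of the untreated peaks at these genes, against 32.2% of all untreated peaks. The summed width of the peaks was 9750 bp without and 7750 bp with treatment, whereas over all peaks it was 9111613 and 9517002 bp. Peak widths come in steps of 250 bp, and the widths at these genes ran from 500 to 1250 bp without and from 500 to 1750 bp with treatment.

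**Figure D2:**
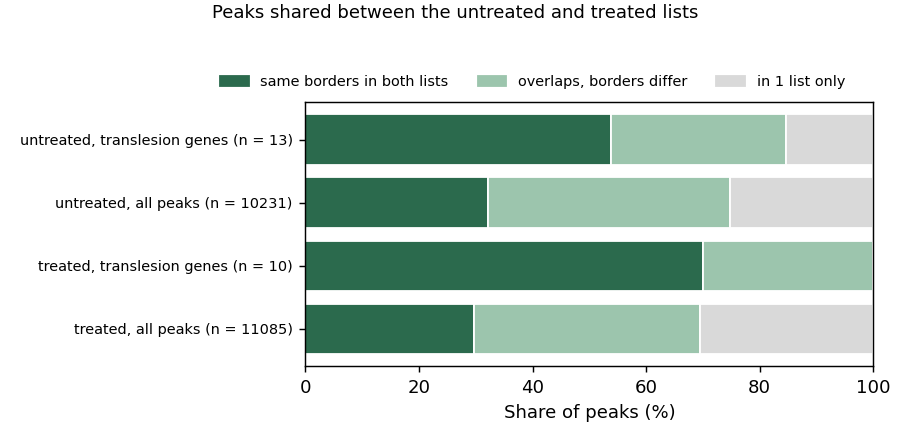
Share of peaks in percent that had the same borders in both lists, that overlapped one with other borders, or that were in 1 list only, for the peaks at translesion synthesis genes and for all peaks. The 10 treated peaks at these genes have no part in 1 list only, and the 13 untreated peaks have 15.4%.

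Among the polymerases that insert opposite lesions, POLK had the same peaks in both lists, as did POLI. POLK lies on the plus strand of chromosome 5 from 74807670 to 74905816. Both lists had a plus-strand peak of 500 bp from 74807497 to 74807996, which began 219 bp upstream of the canonical start and ended 280 bp downstream of it. It covered 24 bp of the first, noncoding exon and 257 bp of intron. The canonical start of CERT1, the gene of the ceramide transfer protein, lies on the minus strand 262 bp upstream of the POLK start, while the CERT1 record begins at 74807963, inside the POLK peak, and neither list had a minus-strand peak there. The POLK peak held 21 runs of at least 3 G, a number reached by 3.77% of untreated peaks of the same width.

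A further POLK-assigned peak of 500 bp was again identical in both lists, from 74906997 to 74907496, and lay 1181 bp behind the end of the gene. It covered the canonical start of ANKDD1B, a gene on the same strand, from 281 bp upstream to 218 bp downstream. Whether it belonged to transcription of POLK or of ANKDD1B cannot be told apart from position and strand.

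POLH encodes polymerase η, whose loss causes the variant form of xeroderma pigmentosum. It had one peak in both lists and one in the untreated list only. The gene lies on the plus strand of chromosome 6 from 43543922 to 43588260. The plus-strand peak of 1000 bp, from 43543751 to 43544750, was identical in both lists and reached from 171 bp upstream to 828 bp downstream of the start, over 256 bp of noncoding exon and 573 bp of intron. In untreated cells it touched a second peak, on the minus strand, that was 500 bp wide and ran from 43543251 to 43543750. The minus-strand peak lay 25 to 524 bp downstream of the canonical start of XPO5, which encodes the export receptor of microRNA precursors and is read away from POLH. The treated list had no peak on that strand, so that at this pair of start sites only the POLH direction had a peak in both lists. Of all untreated peaks of 500 bp, 64.4% were shared. The minus-strand peak had a GC content of 68.6% and a GC skew, the difference of G and C over their sum on the peak strand, of -0.17. The peak in both lists had 52.0% and 0.065.

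POLI, the gene of polymerase ι, showed a peak on the strand opposite to the gene and none on its own strand. It lies on the plus strand of chromosome 18 from 51795887 to 51847636. The minus-strand peak of 500 bp from 51795552 to 51796051 was identical in both lists and covered the canonical start, 335 bp upstream and 164 bp downstream, including 115 bp of coding sequence. The same place lies 347 to 846 bp inside a long noncoding RNA gene on the minus strand, ENSG00000277324. The peak had 5 runs of at least 3 G and 10 runs of at least 3 C on its strand.

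REV3L, the catalytic subunit of polymerase ζ, had a pair of peaks on opposite strands in each list. The gene is read from the minus strand and occupies bases 111620231 to 111804918 of chromosome 6, with 12 annotated transcripts and its canonical start at 111804421, inside the record. The minus-strand peak reached from 660 bp upstream to 339 bp downstream of that start in untreated cells, from 111804082 to 111805081. After treatment it reached only 89 bp downstream, from 111804332, so that it was narrower by 250 bp at its gene-body end and its width went from 1000 to 750 bp. The plus-strand peak, from 111804832 to 111805581, was 750 bp wide and identical in both lists. It lay 117 to 866 bp downstream of the canonical start of TRAF3IP2-AS1, an antisense long noncoding RNA gene. The peaks of both strands overlapped by 250 bp in both lists. The bases printed above as upstream of REV3L come from this overlap. They lie outside the REV3L record and downstream of the canonical start of TRAF3IP2-AS1.

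REV1 and MAD2L2, which hold the polymerases together at the lesion, had no peak in either list. At REV1, on chromosome 2 from 100016938 to 100106497, the nearest peak lay 199908 bp from the gene record in untreated and 218908 bp in treated cells. At MAD2L2, on chromosome 1 from 11718975 to 11751868, it lay 60284 and 60034 bp away. For comparison, coding genes without a peak had a median distance of 71607 bp to the nearest peak, and of 67115 bp with treatment. A larger distance than that of REV1 was found for 25.4% of them in untreated cells, and than that of MAD2L2 for 54.3%.

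PCNA, the clamp on which the polymerases exchange, had the most untreated peaks of the 9 genes, with 4, and 2 treated peaks, as many as POLK, REV3L and PRIMPOL. All were on its own strand. It is read from the minus strand between 5107272 and 5095599 of chromosome 20, with 2 annotated transcripts. The canonical one starts at 5100604, and the other starts 6668 bp further upstream at the end of the record. The peak over the canonical start, 1000 bp from 5099751 to 5100750, was the same in both lists. It reached from 146 bp upstream to 853 bp downstream and covered 221 bp of coding sequence, 160 bp of noncoding exon and 473 bp of intron.

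At the outer PCNA start, the untreated list alone had a peak, 750 bp from 5106751 to 5107500. It reached from 228 bp upstream to 521 bp downstream of this start and overlapped 127 bp of exon and 395 bp of intron of the longer transcript. The record of CDS2, a gene of phospholipid synthesis read in the other direction, begins 252 bp away, and neither list had a peak on the CDS2 strand within 2 kb of PCNA. This peak contained a G-quadruplex motif, taken as 4 runs of at least GGG with 1 to 7 bases between them, which 18.2% of all untreated peaks contained on their strand. Of all untreated peaks as wide as this one, 75.1% had an overlapping treated peak.

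Behind PCNA the lists differed the other way. Untreated cells had a peak of 500 bp from 5093251 to 5093750 and one of 1000 bp from 5094001 to 5095000, with a gap of 250 bp between them. The treated list had a single peak of 1750 bp from 5093251 to 5095000 that kept the outer borders and included the gap. This peak began 599 bp behind the end of PCNA and extended over the canonical start of TMEM230, a membrane protein gene on the same strand, to 471 bp inside it, with a Y RNA gene under it. Since both genes are read from the minus strand, the part of each in these peaks cannot be told apart.

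RAD18, the ligase that marks PCNA at stalled forks, had no peak in either list, and the nearest one lay 184838 bp from the gene record in both. It is the longest of the 9 genes, 188370 bp between 8817088 and 9005457 of chromosome 3, read from the minus strand. A larger distance was found for 27.1% of the coding genes without a peak in untreated cells.

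PRIMPOL, the primase that restarts synthesis past a block, had a pair of touching peaks on opposite strands. The gene lies on the plus strand of chromosome 4 from 185570821 to 185616117. The plus-strand peak of 500 bp, from 185570745 to 185571244, was identical in both lists and spanned the canonical start from 147 bp upstream to 352 bp downstream, over 171 bp of noncoding exon and 182 bp of intron. The minus-strand peak lay directly upstream, without a gap. In untreated cells it was 1250 bp wide, from 185569495 to 185570744, with its far end at -1397 bp from the canonical start. In treated cells it was 500 bp wide, from 185570245, with its far end at -647 bp. It kept its border with the PRIMPOL peak and was narrower by 750 bp at the other end, the largest narrowing among the same-strand pairs of peaks at these genes.

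The minus-strand peak at PRIMPOL was also the richest in G among the 13 untreated peaks, with 39.2% G on its strand, and the GC skew was 0.15 there and 0.22 in the narrower treated peak. It held 55 runs of at least 3 G in untreated cells, a number reached by 0.505% of untreated peaks of its width, and 28 in treated cells, reached by 0.447% of treated peaks of its width. A G-quadruplex motif was present in both. The neighbouring PRIMPOL peak had a GC skew of -0.12 on the plus strand, against 0.15 on the minus strand for the untreated minus-strand peak. Each skew is given on the peak's own strand. Read on the plus strand, both stretches held more C than G, so the change of sign comes from the change of strand.

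Peaks that touch or overlap a peak of the other strand made up 6 of the 13 untreated peaks at these genes, at POLH, REV3L and PRIMPOL, and 4 of the 10 treated ones, at REV3L and PRIMPOL. Over all peaks these shares were 8.56% and 9.13%. The peaks of one pair share a locus, so these are 3 places and not 6 independent ones.

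The base composition of the peaks varied from gene to gene. The GC content of the 13 untreated peaks ran from 45.4%, in the 1000-bp peak behind PCNA, to 73.1%, at the REV3L start, with a median of 62.5%, against a median of 56.2% over 10169 untreated peaks with known bases. GC skew was above 0 in 8 of the 13 peaks and in 49.2% of all untreated peaks. The skew was 0.11 at the outer PCNA start and in the 1000-bp peak behind the gene. The REV3L peak on the gene strand had -0.15 in untreated and -0.24 in treated cells, the lower value belonging to the peak without its gene-body end. A G-quadruplex motif was present in 3 untreated peaks, at REV3L on the opposite strand, at the outer PCNA start and at PRIMPOL on the opposite strand. It was present in 2 treated ones. These were 23.1% and 20.0% of the peaks at these genes, near the 18.2% and 19.3% over all peaks. A plain GGG run was of little use for comparison, since 99.4% of untreated peaks of 500 bp held one.

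**Figure D3:**
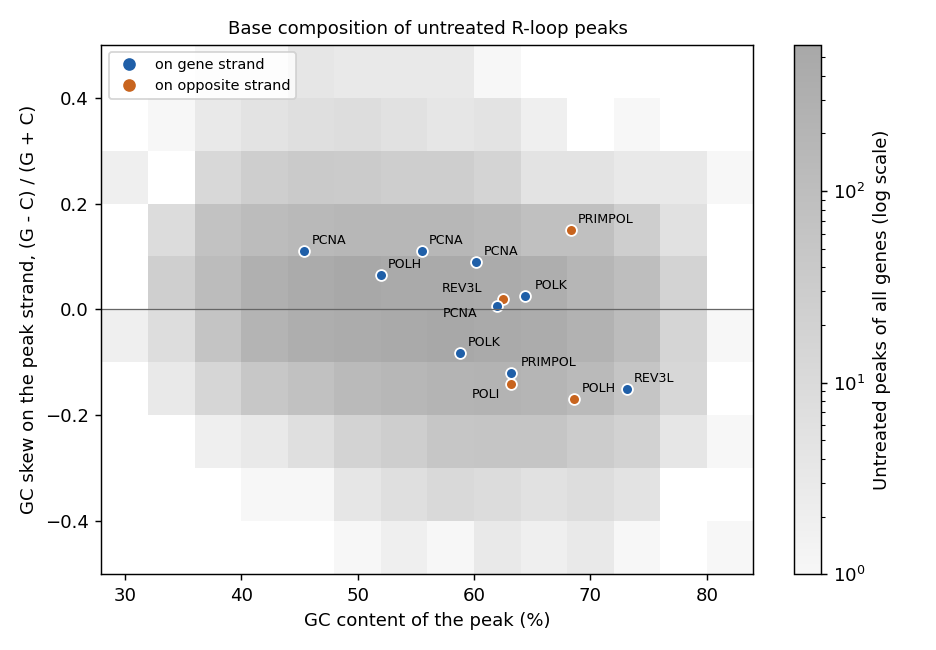
GC content in percent against GC skew on the peak strand for the 13 untreated peaks at translesion synthesis genes, in blue on the gene strand and in orange on the opposite strand. The grey field counts all untreated peaks on a log scale, and the REV3L peak on the gene strand, at 73.1% GC and a skew of -0.15, lies farthest to the right.

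The start sites of the 3 genes without peaks differed among themselves in GC content and lay among the others in GC skew. Over 500 bp on either side of the canonical start, GC content was 78.0% at REV1, higher than at 98.3% of coding genes, 68.9% at MAD2L2 and 53.1% at RAD18. The 6 genes with peaks had 58.6% at POLK to 71.2% at REV3L, so that REV1 was above and RAD18 below all of them, with MAD2L2 inside their range. GC skew over the 500 bp downstream of the start was 0.058 at REV1, 0.13 at MAD2L2 and 0.11 at RAD18. At the genes with peaks it ran from -0.069 at PCNA to 0.19 at POLI, and the median over all coding genes was 0.052. Over all coding genes, skew was above 0 at 67.1% of those with an untreated peak within 1 kb of the start and at 66.2% of those without. The ratio of observed to expected CpG was 0.965 at REV1, 0.870 at MAD2L2 and 0.754 at RAD18, all above the median of 0.724 over coding genes.

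**Figure D4:**
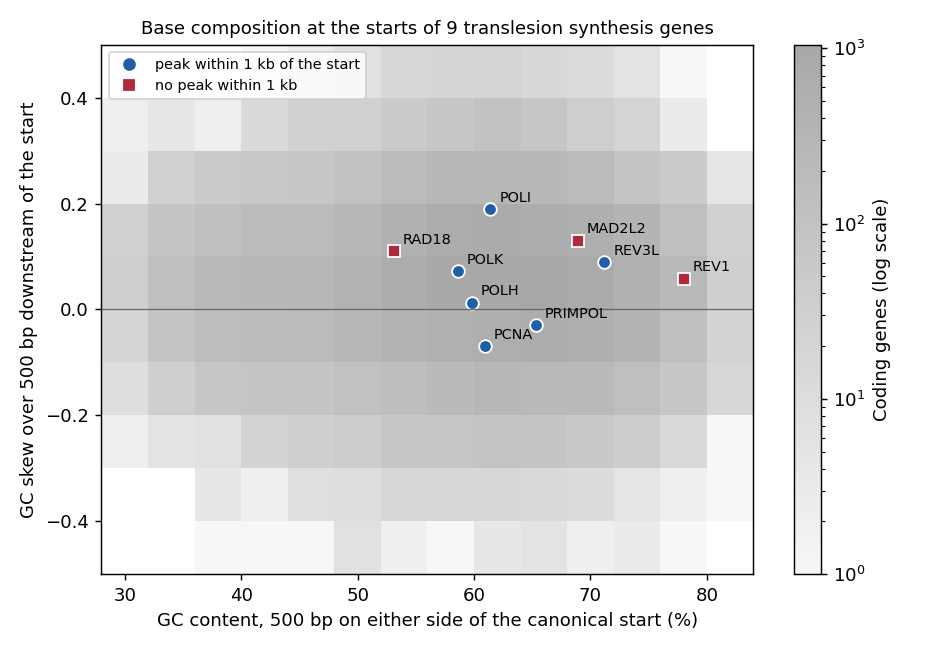
GC content in percent over 500 bp on either side of the canonical start against GC skew over 500 bp downstream of it, for the 9 genes over a grey field that counts all coding genes on a log scale. The 3 genes without a peak within 1 kb of the start, drawn as red squares, lie at 53.1%, 68.9% and 78.0% GC, within the spread of the other genes in skew.

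Of 38 further genes of the pathway, 23, or 60.5%, had a peak in untreated cells and as many in treated cells, and 20 had peaks in both. The shares over all coding genes were 41.8%, 43.9% and 36.4%. Among 13 genes of PCNA ubiquitination and its reversal, 8 had an untreated and 9 a treated peak. SPRTN, a protease acting at stalled forks, had a peak over its start in the untreated list only, of 500 bp. The treated list alone had a peak of 500 bp over the start of ATAD5, which unloads PCNA, and one beside the start of UBE2N, the E2 enzyme of PCNA polyubiquitination, on the strand opposite to the gene. The widest peak of this list, assigned to UBE2A, was 1500 bp wide without and 1250 bp wide with treatment. It began at -102838 bp from the canonical UBE2A start, far upstream of it. Next came a pair of 1250 bp with the same borders at ZRANB3, a fork-remodelling translocase, and untreated peaks of 1250 bp at HLTF and USP1. Peaks of the pathway genes were counted anywhere in the record or 2 kb on either side, so some lay far from the start.

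Of 6 clamp loader genes, 3 had an untreated and 2 a treated peak. RFC3 had 2 peaks in the untreated list only, one of 500 bp from 215 to 714 bp downstream of its start and one of 1000 bp, and neither overlapped a treated peak. At CHTF18 one peak was 1250 bp wide without and 1750 bp wide with treatment, and a second one of 750 bp was in the untreated list only. The first ended 13130 bp downstream of the canonical start in both lists. Among 11 genes of the replicative polymerases and primase, 6 had peaks in each list and 5 in both. PRIM1, the catalytic primase subunit, had a peak of 500 bp in the untreated list only, and POLA1, the catalytic subunit of polymerase α, one of 500 bp over its start in the treated list only. At POLD2, a subunit that polymerases δ and ζ share, both lists had the same peak of 2000 bp. It lay 9617 to 11616 bp downstream of the canonical start, and both lists also had a peak of 500 bp over that start. At POLE3, a small subunit of polymerase ε, the widest peak measured 1750 bp without and 2000 bp with treatment. It began 3679 bp downstream of the canonical start without and 3429 bp with treatment.

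Among 5 other specialised polymerases, 4 had peaks in both lists, and POLQ had none. The peak of POLB, the polymerase of base excision repair, was 1000 bp wide in both. Of the 3 genes of replication protein A, RPA2 and RPA3 had peaks in both lists and RPA1 in neither. The RPA3 peaks lay 77488 bp or more downstream of its canonical start. Of the 38 pathway genes, 3 had peaks in the untreated list only and 3 in the treated list only, against 5.43% and 7.55% of coding genes. Counted by peaks, 11 of the 38 genes, or 28.9%, had an untreated peak without an overlapping treated one, and 4, or 10.5%, had a treated peak without an overlapping untreated one. Over all coding genes these shares were 12.4% and 16.0%. They count genes with and without peaks, and 60.5% of the 38 genes had an untreated peak at all, against 41.8% of coding genes. The pathway lists were also chosen with earlier results of these data known. Among the 9 translesion synthesis genes, POLH and PCNA had such an untreated peak and none had such a treated peak.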

How the data were processed

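spKAS-seq libraries of HEK293T cells were made by the authors. Per the labels and methods, Trim Galore served for trimming, Bowtie2 for alignment (hg19) and Picard for duplicates, and R-loops were defined from 2 replicates by an earlier procedure. Tool versions are not given in the sources used here. The deposited lists, 1 per condition and attached to replicate 1, hold for every peak its position and strand, and no height, fold or score. Widths are multiples of 250 bp for all but 6 untreated and 3 treated peaks. Depth, inputs and signal were not analysed here.

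Peaks were assigned to genes by an overlap of at least 1 bp with the record or 2 kb on either side. Peaks were shared when they overlapped by at least 1 bp on either strand. The counts of shared peaks equalled those of bedtools 2.31.1, and interval counting was tested on simulated data. GC content, skew and motifs came from GRCh37, leaving out peaks with more than 50% masked bases. The members and the pathway lists were chosen with earlier results of these data known. Named were all members, pathway genes with peaks in 1 list only, and up to 3 genes per list with the widest peaks, or more where widths were equal. POLQ and RPA1, without a peak, were named as well. Other genes were named where they lie at a peak of a member. Other flanks, overlaps, strands and widths were tried as alternatives. Some neighbouring features are not reported here. No p-value was computed. Python 3.11.15, numpy 2.4.6, pandas 2.3.3, pysam 0.24.0, samtools 1.23.1 and matplotlib 3.10.9 were used.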

Additional observations from a re-analysis of the deposited data

How the results depend on the processing

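No paired analysis was possible because a single list of peaks was analysed for each condition and nothing here was tested across samples. For 8 counts, 46 values were recomputed under other settings, and 38 stayed within 1.5 times the first value. Without a flank, 8 untreated peaks lay at the genes, 7 of them shared. With the peaks below the median width of their list left out, so that fewer peaks entered by construction, 7 untreated and 5 treated peaks were left, 3 genes had a treated peak, 3 had peaks in both lists, and 1, PRIMPOL, in 1 list only. On the gene strand only, POLI had no peak, which left 5 genes in each list. With at least 90% of each peak overlapping, 7 untreated peaks were shared. The lists hold no score, so no stricter threshold could be applied, and 1 list per condition gives no spread between replicates.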
